A study of Mus musculus with 2 samples.

Results

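The genes of cholesterol and fatty acid synthesis were examined in organoids cultured from forestomach, which in mice carries a squamous lining unlike the glandular remainder of the stomach. Genes were chosen by symbol from 40 names covering sterol and fatty acid synthesis, elongation, desaturation and control by sterol regulatory element-binding proteins (SREBPs). Of the 40, 38 had a probe set annotated to a single gene symbol, out of 29456 such genes on the array. Scd2 and Acss2 lay only on probe sets that also carry a second symbol, so their values are given apart from all counts. One organoid culture was SOX2 KO, derived from Krt5CreER/+; Sox2∆/∆; ROSA26tdTomato/+ mice, in which a tamoxifen-activated Cre under the Krt5 gene removes Sox2 from cells that express Krt5 and switches on tdTomato. The other was labelled WT control, from wildtype mice, and the study's control mice were littermates that lacked Krt5CreER, with no more said here of their Sox2 alleles. Both were grown in Matrigel in keratinocyte medium with bovine pituitary extract, epidermal growth factor, a ROCK inhibitor and calcium. The sources used here give no ages for the mice. Each group had 1 array (Affymetrix Mouse Gene 2.0 ST), so there is no replicate error, no difference was tested and no p-value is given, and genotype cannot be told apart from mouse, culture, passage, Cre or tdTomato.

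Cells build cholesterol from acetyl-CoA through the mevalonate pathway to squalene, which is closed into lanosterol and trimmed to cholesterol. Fatty acids start from the same acetyl-CoA: acetyl-CoA carboxylase and fatty acid synthase make palmitate, elongases lengthen it and desaturases add double bonds. SREBPs switch on both arms, SREBP2 mainly the sterol genes and SREBP1 mainly the fatty acid genes. SCAP escorts them out of the endoplasmic reticulum when sterol is low and the INSIG proteins hold them back when it is high. In squamous epithelia these lipids feed membranes and the surface barrier.

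Values are log2 array signals as the authors normalized them, and each difference is SOX2 KO minus WT control, so a difference of 1 is 2-fold. Levels are compared only within a gene, and the summed linear signals given for marker lists weigh the brightest probe sets most. A floor was set at the median signal of all genes (3.3), and genes that reached it on 1 array or both were counted, as 36 of the 38 were. Elovl3 and Stard4 did not. The 95th percentile of signals from olfactory receptor genes, which are not expected in this epithelium, was 3.84 and served as a background level. Both values of 24 of the 38 genes lay at or above it, 5 had 1 value below and 9 had both below. The SD of the difference over 1127 receptor genes was 0.262, a spread between probe sets of 2 arrays and not between cultures.

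The signal of Sox2, the deleted gene, was 5.74 in WT control and 2.53 in SOX2 KO, at least 3.73-fold lower against the background level. The basal squamous markers Krt5 (8.86 in WT control, 8.71 in SOX2 KO) and Trp63 (6.44 and 6.31) were well above background on both arrays. The desmosomal cadherin Dsg3 was 8.61 and 8.13. The keratins of the upper layers were lower in SOX2 KO (Krt13 at 10.33 and 8.97, Krt4 at 8.46 and 7.49), and the basal keratin Krt15 was higher (7.5 and 8.73). All 6 smooth muscle markers examined had higher signal in SOX2 KO, where 47.8% of all genes above the floor were higher. With values below background raised to it, 5 were at least 1.5-fold higher, against 4.1% of all genes. The exception was Des (3.60 and 4.25, at least 1.33-fold). The summed linear signal of the 6 went from 79.5 in WT control to 314.5 in SOX2 KO. In log2 signal, Acta2, smooth muscle actin, was 4.16 and 7.05, Myh11, smooth muscle myosin, 3.97 and 6.26, Actg2 3.31 and 5.24, and Cnn1 3.10 and 4.53. Of 8 fibroblast markers, 6 were above the floor. With values below background raised to it, 1 of these, Dcn, was at least 1.5-fold higher, against 4.1% of all genes. The summed linear signals of the 8 were 80.8 and 149.3, and Dcn was the brightest of them in SOX2 KO. The matrix proteoglycan Dcn was 2.83 in WT control and 5.90 in SOX2 KO, at least 4.17-fold higher. The collagens Col1a1 (4.04 and 4.34) and Col1a2 (3.48 and 4.12) and Vim (3.41 and 3.90) differed less, and Pdgfrb (3.48 and 3.80), Pdgfra (3.01 and 2.96) and Lum (2.49 and 2.42) lay below background on both arrays. The summed linear signal of 8 squamous markers was 3077 for WT control and 2209 for SOX2 KO. The part of these shifts in the differences of the lipid genes was not tested, and in bulk RNA fewer cells of a type cannot be told apart from less RNA per cell.

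The promoter stretches of 4 genes are shown first, because these are the gene with the largest difference (Elovl6), 2 sterol genes with lower signal in SOX2 KO (Mvd and Idi1) and the sterol gene whose promoter window held a sterol regulatory element (Hmgcs1). Each is the 150 bases before the RefSeq start site, 5′ to 3′ on the gene's strand (GRCm38.p6). Capitals mark CCAAT, the box bound by NF-Y, on either strand (ATTGG on the opposite one), and in Hmgcs1 also the sterol regulatory element, and the Elovl6 stretch has none.

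Elovl6, chr3:129532236-129532385, plus strand: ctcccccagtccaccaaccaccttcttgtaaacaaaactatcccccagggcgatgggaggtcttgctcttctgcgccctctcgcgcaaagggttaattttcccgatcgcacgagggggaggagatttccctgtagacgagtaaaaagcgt
Mvd, chr8:122443423-122443572, minus strand: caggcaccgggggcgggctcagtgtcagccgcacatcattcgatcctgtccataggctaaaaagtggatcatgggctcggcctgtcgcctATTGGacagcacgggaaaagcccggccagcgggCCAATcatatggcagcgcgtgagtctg
Idi1, chr13:8885456-8885605, plus strand: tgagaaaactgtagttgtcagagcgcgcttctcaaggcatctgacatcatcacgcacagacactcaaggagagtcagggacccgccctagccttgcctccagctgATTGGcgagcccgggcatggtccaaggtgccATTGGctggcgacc
Hmgcs1, chr13:119690201-119690350, plus strand: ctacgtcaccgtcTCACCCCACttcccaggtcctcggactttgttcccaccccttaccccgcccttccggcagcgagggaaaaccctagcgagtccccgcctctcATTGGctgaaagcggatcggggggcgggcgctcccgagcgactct

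Windows of 300 bases (250 before and 50 after a start site) were found for 32 of the 40 genes, 42 windows in all, with some genes giving 2 or 3. In 21 of the 42 the start site was the outer end of the RefSeq gene, and in the rest it was not. Fdps, Fdft1, Sqle, Scd1, Scd2, Fads1, Elovl3 and Stard4 had no window and were not searched. CCAAT was present on either strand in 26 of the 42 (61.9%), against 37.4% of all 32851 windows and 36.9% of those of genes above the floor. The element TCACNCCAC, searched only in these letters with N as any base, was present in 1, that of Hmgcs1, against 1.24% of all windows. The SOX core ACAATG was present in 3 (Acacb, Elovl5 and 1 window of Srebf1), or 7.14%, against 12.6% of all windows and 8.6% of those of genes above the floor. The Elovl6 window held none of these 3 motifs. A match is a description of the letters and not a binding site.

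Across both arms, 1 of the 36 genes above the floor was at least 2-fold higher in SOX2 KO (2.78%) and 0 were at least 2-fold lower. Over all 15983 genes above the floor these shares were 2.01% and 0.795%. By measured difference, 3 were at least 1.5-fold higher (Elovl6, Insig2 and Scd1) and 3 lower (Fads3, Mvd and Cyp51), each 8.33% of the 36, against 6.45% and 4.43% of all genes. The SOX2 KO values of Fads3 and Mvd lay below background, however. With values below background raised to it, 3 stayed at least 1.5-fold higher and 1 lower (Cyp51), against 4.1% and 2.65% of all genes, and the counts past 2-fold were again 1 and 0, against 1.36% and 0.607%. To any extent, 16 were higher and 19 lower (44.4% and 52.8%), against 47.8% and 49.4% of all genes. The median difference was -0.015, and that of all genes 0. In its median and in its count past 2-fold, which leaves out Scd2 (difference 1.09), the pathway lay close to all genes. The differences described next are those of single genes.

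**Figure D1:**
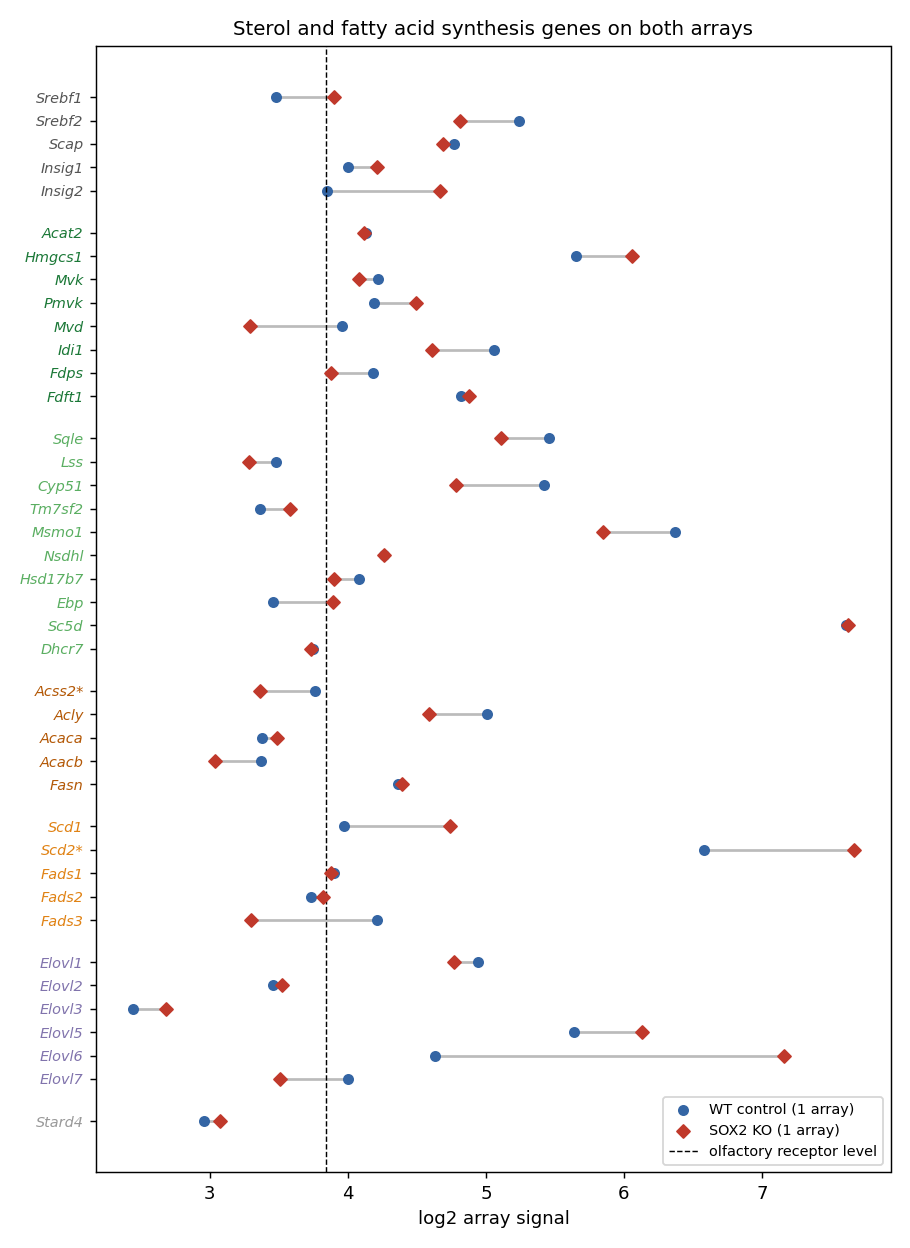
Log2 array signal of each of the 40 genes (rows, in pathway order) in the WT control array (circles) and the SOX2 KO array (diamonds), with the olfactory receptor level of 3.84 dashed and an asterisk on the 2 genes read from probe sets with several symbols. Elovl6 has the widest gap (4.63 and 7.16), and most other pairs lie close together.

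The regulators of the pathway differed in both directions. Srebf2, which encodes SREBP2, had signals of 5.24 in WT control and 4.81 in SOX2 KO, a difference of -0.43. Srebf1, which encodes SREBP1, went the other way, at 3.48 and 3.90 (0.42), but its WT control value lay below background, which leaves at least 1.04-fold. Insig2, a sterol-sensing retention protein, was 3.85 and 4.67, or 1.77-fold higher in SOX2 KO, with the WT control value at the edge of background. Its relative Insig1, itself a known SREBP target, was 4.0 and 4.21, and the escort Scap was 4.77 and 4.69, both within 1 SD of the receptor difference. Of all genes above the floor, 3.11% had a larger positive difference than Insig2.

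Most sterol genes differed by small amounts. All 18 were above the floor, of which 11 (61.1%) were lower, 6 higher and 1 equal, where 49.4% of all genes were lower, the median being -0.08 and the range -0.67 to 0.43. Among the 13 with both values at or above background, 8 were lower, 4 higher and 1 equal. Of all 8595 genes with both values at or above background, 4076 were lower, 4279 higher and 240 equal. The signs of Acat2 and Dhcr7 turned on the scaling, and Nsdhl, the equal one, ran from -0.02 to 0.01 over the scalings. Between acetyl-CoA and squalene, Mvd, the decarboxylase that makes isopentenyl diphosphate, was 3.96 in WT control and 3.29 in SOX2 KO. Since the SOX2 KO value lay below background, Mvd was at least 1.09-fold lower. Idi1, which isomerizes that product, was 5.06 and 4.61, and Fdps, which joins the units into farnesyl diphosphate, 4.18 and 3.88. Both were lower in SOX2 KO, by less than 1.5-fold.

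The other enzymes of this stretch were level or higher in SOX2 KO. Hmgcs1, the synthase that makes HMG-CoA, was 5.65 in WT control against 6.06 in SOX2 KO, and the kinase Pmvk 4.19 and 4.49. The thiolase Acat2 (4.13 and 4.12), the kinase Mvk (4.22 and 4.08) and the squalene synthase Fdft1 (4.82 and 4.88) were nearly level. The promoters of Hmgcs1, Mvd and Idi1 all held CCAAT, and their differences were 0.41, -0.67 and -0.45.

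After squalene, the largest differences were those of Cyp51 and Msmo1, which act in lanosterol trimming. Cyp51, the lanosterol demethylase, was 5.42 in WT control and 4.78 in SOX2 KO, or 1.56-fold lower. Msmo1, the C4 methyl sterol oxidase that acts after it, was 6.37 and 5.85 (-0.52). Sqle, the squalene epoxidase, was 5.46 and 5.11 (-0.35). All 3 had both values above background. Of all genes above the floor, 3.50% had a lower difference than Cyp51 and 5.97% a lower one than Msmo1.

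The remaining sterol enzymes showed no common direction. Sc5d, the lathosterol desaturase, was 7.61 and 7.62, and Nsdhl, a C4 decarboxylating dehydrogenase, was 4.26 in both. Hsd17b7, which reduces the sterol ketone, was 4.08 and 3.90. Ebp, the sterol isomerase, was 3.46 in WT control and 3.89 in SOX2 KO, with only the latter above background. Lss (3.48 and 3.28), which closes the rings of lanosterol, Tm7sf2 (3.36 and 3.58), a sterol reductase, and Dhcr7 (3.75 and 3.73), which catalyses the last step in one branch, lay below background on both arrays, where a difference cannot be read. Stard4, a carrier that moves cholesterol between membranes, was below the floor (2.96 and 3.07).

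**Figure D2:**
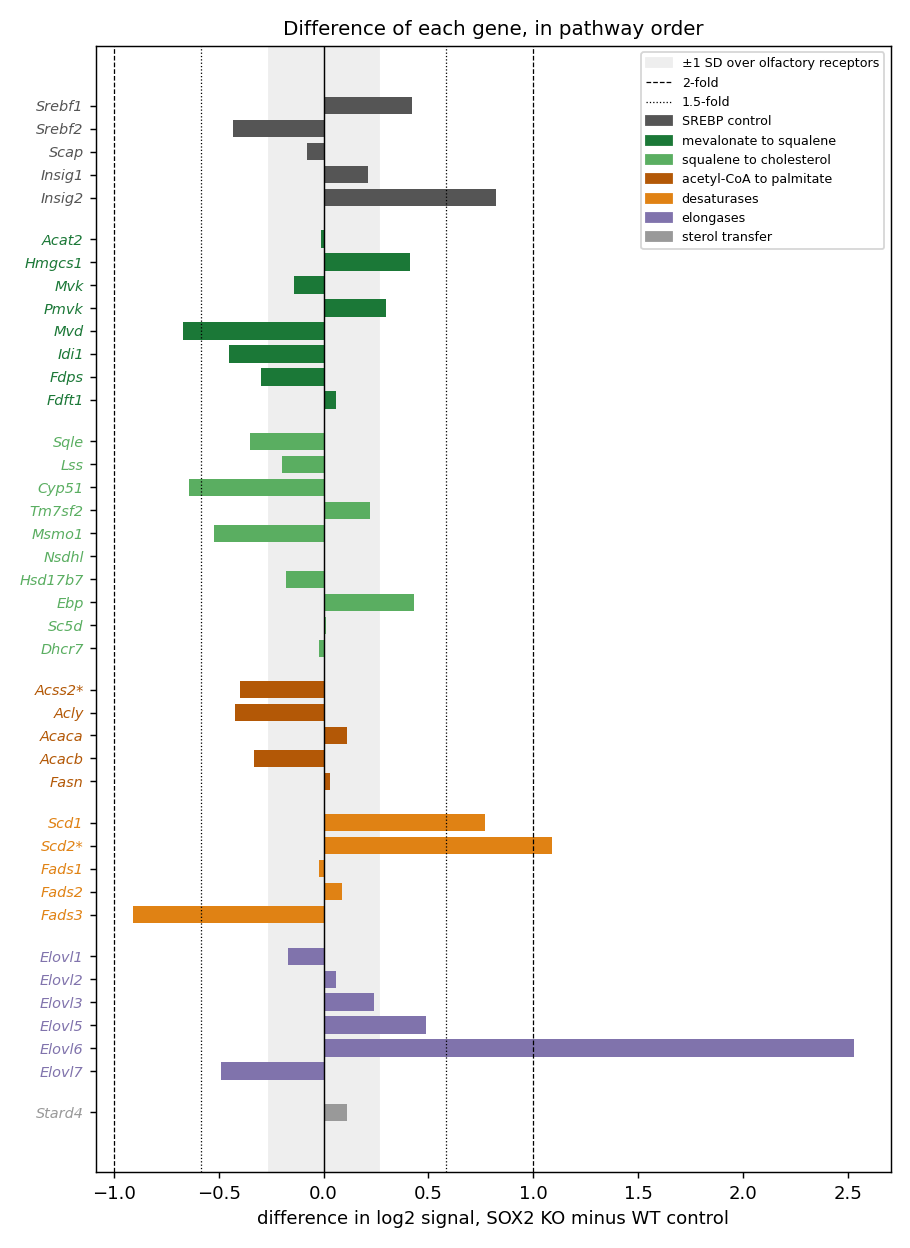
Difference in log2 signal (SOX2 KO minus WT control) of each gene in pathway order, coloured by step, with the SD over olfactory receptor genes (0.262) shaded and the 1.5-fold and 2-fold differences as dotted and dashed lines. Elovl6 reaches furthest up, and the bars of Fads3 and Mvd include SOX2 KO values below background.

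The fatty acid arm held the largest higher signal of the pathway, that of Elovl6. Over the 13 that reached the floor the median was 0.03, with 7 higher and 6 lower, and the mean, which Elovl6 carries, was 0.13. Elovl6, the elongase that extends palmitate to stearate, was 4.63 in WT control and 7.16 in SOX2 KO, a difference of 2.53 or 5.78-fold. Both values were above background. Only 11 of the 15983 genes above the floor had a larger positive difference. As for all 40 genes, its probe set (17402558) overlaps the RefSeq gene of that name. It covers chromosome 3 from 129532386 to 129638495 (mm10, plus strand).

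The nearest genes above the floor on either side of Elovl6 did not have such a difference. They were Gar1 (4.99 in WT control, 4.46 in SOX2 KO) and Pla2g12a (3.72 and 3.36) on one side, and 5730508B09Rik (5.47 and 5.61) and Ap1ar (7.73 and 7.86) on the other. These are not all close: Gar1 starts at position 129824912, but 5730508B09Rik ends at 127896323. Genes below the floor were left out. None of the 4 was higher by as much as 1.5-fold.

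The other elongases spread around 0. Elovl5, which lengthens polyunsaturated fatty acids, was 5.64 in WT control and 6.13 in SOX2 KO, or 1.40-fold higher. Elovl7, which acts on long saturated chains, went the opposite way, at 4.0 and 3.51, and against the background level was at least 1.12-fold lower. Elovl1, of very long saturated chains, was 4.94 and 4.77. Elovl2 (3.46 and 3.52) and Elovl3 (2.44 and 2.68) were below background on both arrays, Elovl3 also below the floor.

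Among the desaturases of the pathway, Scd1 and Scd2 had higher signal in SOX2 KO. Scd1, a stearoyl-CoA desaturase that makes oleate from the product of ELOVL6, was 3.97 in WT control and 4.74 in SOX2 KO, or 1.71-fold higher. Scd2, its close relative, was 6.58 and 7.67, or 2.13-fold higher, on a probe set that also carries the symbol Mir5114. That probe set spans chromosome 19, positions 44293676 to 44306868 (mm10). Scd1 lies on the same chromosome at 44394450 to 44407709, and the nearest genes above the floor were Bloc1s2 (4.81 in WT control, 5.64 in SOX2 KO), Cwf19l1 (3.53 and 3.76), Ndufb8 (4.53 and 4.33) and Hif1an (3.20 and 3.32). The other genes of the SCD cluster, Scd3 (3.27 and 3.07) and Scd4 (2.75 and 2.76), were below the floor. The SCD genes have similar sequences, and whether their probes cross-hybridize was not tested.

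The FADS desaturase genes, which lie side by side on chromosome 19, were not higher by as much. Fads1 (3.90 in WT control, 3.88 in SOX2 KO) and Fads2 (3.73 and 3.82), which act in polyunsaturated fatty acid synthesis, were level and near background. Fads3, whose product acts on sphingoid bases, was 4.21 and 3.30, and since the SOX2 KO value was below background it was at least 1.29-fold lower.

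None of the enzymes that lead to palmitate differed by 1.5-fold. Fasn, fatty acid synthase, was 4.36 in WT control and 4.39 in SOX2 KO. Acly, which splits citrate to cytosolic acetyl-CoA, was 5.01 and 4.59 (-0.42). Acaca (3.38 and 3.49) and Acacb (3.37 and 3.04), the acetyl-CoA carboxylases, were below background on both arrays, as was Acss2 (3.76 and 3.36), the acetate-activating enzyme, whose probe set also carries Gm39969. Beside the higher signals of Elovl6, Scd1 and Scd2, that of Fasn was level and that of Acly lower.

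**Figure D3:**
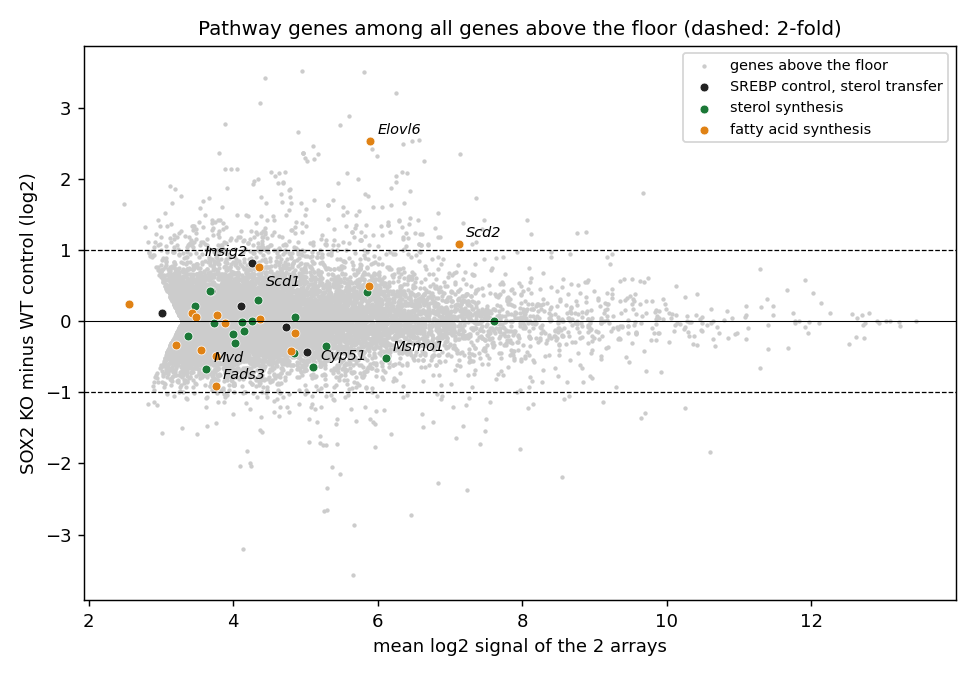
Difference in log2 signal (SOX2 KO minus WT control) against the mean log2 signal of both arrays, for all 15983 genes above the floor (grey) and the 40 pathway genes, including Elovl3 and Stard4 below the floor (black for regulators and Stard4, green for sterol, orange for fatty acid synthesis). Elovl6 at 2.53 and Scd2 at 1.09 lie above the dashed 2-fold line, and the other pathway genes lie inside both lines.

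Related lipid genes outside the 40 names were read from 4 lists. Among 15 genes of sterol uptake, storage and efflux, 0 were at least 1.5-fold higher and 1 lower, with a median of 0.03. That gene was Lipa, the lysosomal lipase that frees cholesterol from its esters (5.49 in WT control, 4.53 in SOX2 KO). Mylip, a ubiquitin ligase and a known target of the sterol-sensing LXR receptors, was 4.16 and 4.69, and Npc2, a lysosomal cholesterol carrier, 6.45 and 6.89. The LXR gene Nr1h2 was 5.23 and 4.99.

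Of 14 further SREBP pathway and target genes that reached the floor, the median was 0. By 1.5-fold, 0 were higher and 1 was lower (7.14%), against 6.45% and 4.43% of all genes. It was Elovl4, the elongase of the very long fatty acids of barrier ceramides (5.87 in WT control, 5.27 in SOX2 KO). The mitochondrial citrate carrier Slc25a1 was 6.15 and 5.76, and Mid1ip1, an activator of acetyl-CoA carboxylase, 4.55 and 4.16. Aacs, which activates acetoacetate for lipid synthesis, was 4.15 and 3.60.

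Fatty acid activation and triglyceride synthesis had 11 genes that reached the floor, with a median of 0.03. By 1.5-fold, 0 were higher and 1 was lower (9.09%), against 6.45% and 4.43% of all genes. The lower one was Dgat2, which makes triglyceride (5.33 in WT control, 4.57 in SOX2 KO). The acyl-CoA synthetases Acsl1 (5.55 and 5.94) and Acsl5 (4.69 and 5.13) and the lipase Pnpla2 (4.57 and 4.80) were higher by less than 1.5-fold. Of 8 genes of fatty acid uptake and oxidation above the floor, 0 passed 1.5-fold in either direction, and the median was 0.145. Hadhb was left out, because its probe set lies on another chromosome than the RefSeq gene. Cpt1a, which admits fatty acids to mitochondria, was 4.0 and 4.41. Hadha, a subunit of the trifunctional protein, was 6.43 and 6.39. The acyl-CoA dehydrogenases were 6.97 and 6.85 (Acadl, long chains), 3.71 and 3.97 (Acadvl, very long chains) and 4.89 and 5.09 (Acadm, medium chains).

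Adipocytes and sebaceous glands make much fatty acid, so their markers were read beside Elovl6 and the SCD genes. Of 8 adipocyte markers, 6 lay below background on both arrays, among them Adipoq (2.66 in both), Fabp4 (2.28 in WT control, 2.70 in SOX2 KO) and Plin1 (3.71 and 3.48). Cfd (4.20 and 4.51) and Retn (4.05 and 4.21) were above it. The summed linear signals of the 8 were 82.7 and 87.7. Of 8 sebaceous gland markers, 7 lay below background on both, among them Mc5r (3.05 and 2.83) and Awat2 (2.95 and 2.89), with sums of 66.5 and 70.1. The exception was Fa2h, the fatty acid 2-hydroxylase, which epidermis also uses (3.74 and 4.41, at least 1.48-fold higher).

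Markers of leukocytes and glandular stomach were mostly near background. Of 8 leukocyte markers, 6 were below it on both arrays, among them Ptprc (2.75 in WT control, 3.08 in SOX2 KO). The sums were 203.1 and 241.1, and Cd68 was by far the brightest of the 8. Lyz2, lysozyme of myeloid cells, was 2.80 and 4.54, while the macrophage receptor Csf1r (3.57 and 3.22) was below background and Cd68 was 7.18 and 7.39. Of 8 glandular stomach markers, 4 were below background on both, and the sums were 83.2 and 105.1. Pgc, a pepsinogen, was 3.39 and 4.53, Muc5ac 3.63 and 3.95, Gkn1 3.64 and 3.88, and Tff1 3.83 and 3.93. Their part in the values of the lipid genes was not tested either.

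**Figure D4:**
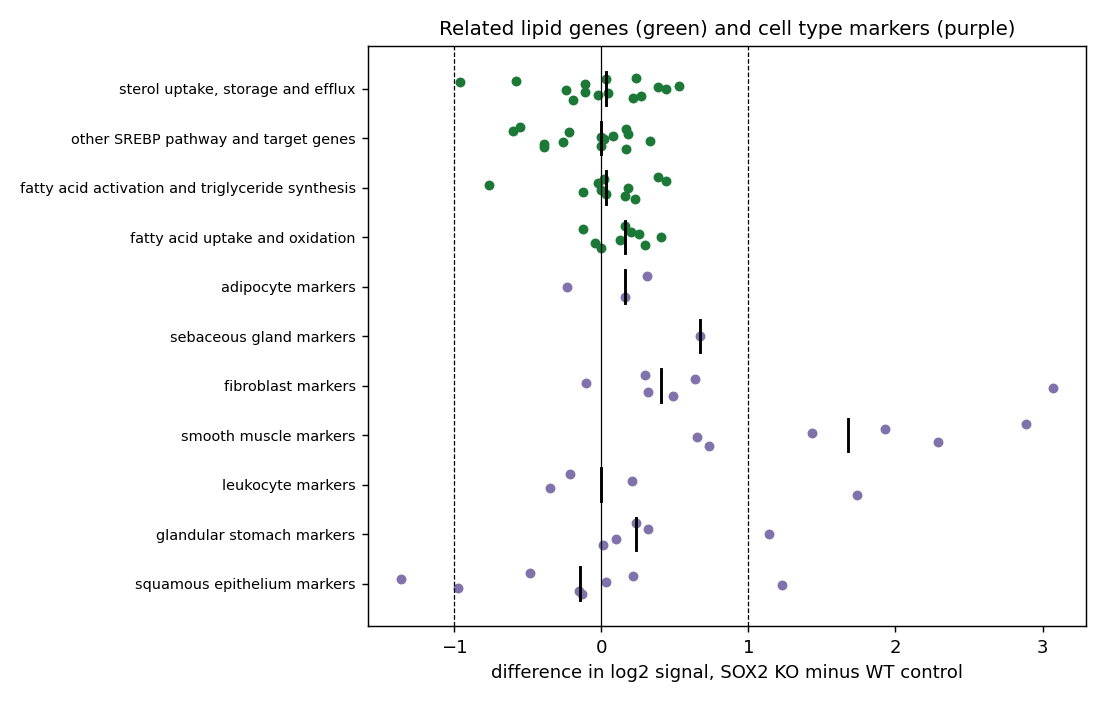
Difference in log2 signal (SOX2 KO minus WT control) of each gene above the floor in 4 lists of related lipid genes (green) and 7 lists of cell type markers (purple), with list medians as black bars and 2-fold as dashed lines. The lipid genes, with Hadhb plotted among them, stay inside 2-fold. By measured difference 4 of the 6 smooth muscle markers lie above it, as do 2.01% of all genes above the floor.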

How the data were processed

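RNA from dissociated forestomach organoids (RNeasy Mini kit) was labelled with the WT Plus assay and hybridized to Mouse Gene 2.0 ST arrays, 1 for WT control and 1 for SOX2 KO, grouped by the submitters' genotype labels. Log2 signals of 34472 probe sets were deposited, as normalized by the authors with Transcriptome Analysis Console, for which neither the version nor the summarization method was found in the sources used here. The probe set annotation refers to mm10, per the file headers. The series value table held the same values (0 differed). Deposited fold changes, p-values and FDR values are the authors' own comparison and were not used.

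Probe sets with 1 symbol (29971) gave 29456 genes, with the probe set of highest mean taken where a gene had several; each pathway gene had 1. The fold thresholds were 2 and, second, 1.5. Counts used measured differences unless said; for single genes whose dimmer value lay below the receptor level, and in counts with values raised to that level, the fold was taken against it. Counting was tested on simulated data. With 1 array a group the number of arrays limits the precision and no test was possible.

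The genes and lists were chosen with earlier results of these data known. All 40 genes were named. Of the other lists, the 4 largest differences and the 2 of highest signal above the floor were named, except 3 that are not reported here; Adipoq, Fabp4, Des, Scd3, Scd4, Mc5r, Awat2, Pdgfra, Lum, Ptprc and Trp63 were added with their values in view. Hadhb was left out, its probe set lying away from the gene. The promoter stretches and the chromosome neighbours were chosen after the data were seen. Alternatives were 3 scalings (median, quantile, loess with span 0.3), the series table, other floors, other probe set rules, 1.5-fold and 3-fold thresholds and the mean. Python 3.11.15, pandas 2.3.3 and statsmodels 0.14.6 were used. Promoters came from RefSeq (GRCm38.p6).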

Additional observations from a re-analysis of the deposited data

Results flagged for a closer look

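Scd2 stood out in data outside the counts of the report. Its probe set carries 2 symbols, so it was not among the 38 genes, and its difference was 1.09 (6.58 in WT control, 7.67 in SOX2 KO), past 2-fold. The difference rests on 1 array a group and was not tested.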

How the results depend on the processing

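No paired analysis was possible because the design holds 1 array per genotype, so none could be left out either. The floor at the receptor level on both arrays and the raising of lower values to that level were chosen after the data were seen. A difference was called moved past 0.262, a median past 0.1 and a count past 1.5 times. Of the alternatives for single genes, 266 stayed within the limit and 0 moved. Many of these could not move, because the series table held the same values and each pathway gene had 1 probe set. The 3 scalings could. For counts and medians, where the same holds of some alternatives, 63 stayed and 6 moved. With probe sets of several symbols used too, for the pathway genes only, 2 of 38 genes were at least 2-fold higher, Elovl6 and Scd2. Of all genes above the floor, read from probe sets with 1 symbol, 2.01% were. The count with Scd2 is thus not as close to all genes as the count without it, though the probe set rules differ. At the 1.5-fold threshold 3 were higher and 3 lower by measured difference, and 3 higher and 1 lower with values below the receptor level raised to it, which removes Fads3 and Mvd. The mean of the fatty acid genes was 0.134, since Elovl6 is far from the rest. The median of the fatty acid genes turned to -0.02 with the receptor floor on at least 1 array, and that of all pathway genes to 0.001 after loess scaling, both within the limit. The sterol median ran from -0.14 to -0.005, the latter with values raised. Signal over background limits 9 genes below 3.84 on both arrays (Lss, Tm7sf2, Dhcr7, Acaca, Acacb, Fads2, Elovl2, Elovl3 and Stard4), whose differences cannot be read either way.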
